A study of Caenorhabditis elegans with 6 samples.

Results

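The genes described here are 8 transcription factors that specify or pattern the embryonic epidermis (hypodermis) of Caenorhabditis elegans: elt-1, elt-3, elt-5, elt-6, lin-26, nhr-23, nhr-25 and die-1. They were taken by gene symbol from an Affymetrix expression table, with every feature (probe set) that names one of them. Symbols found 13 features for 7 of the genes. The gene elt-5 is entered in the table under its other symbol, egl-18, with 2 features, so that 15 of 22548 features were used. A total of 7 genes have 2 features each, and elt-1 has 1. Both lin-26 features also name lir-1, the neighbouring gene (0 protein-coding genes lie between them in the RefSeq order), and their signal cannot be split between the 2 genes.

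The study compared embryos of the mir-35-41(nDf50) mutant with embryos of the wild type strain N2. The mutant animals were VT2935 lacking nEx1187, which by its name is an extrachromosomal array. Both groups were mixed-stage embryos, collected by hypochlorite from cultures of all stages kept at 20 degrees Celsius on growth medium with egg yolk, and whole embryos were extracted. There were 3 arrays per genotype. Nothing in the labels gives separate cultures for the replicates, so the p-values cover only the variation among these arrays, part of which could be technical. A free-text line of the labels names narrower stages in terms of insect embryos, and it was not used.

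The microRNAs of the mir-35 family have a common seed, are expressed in the embryo and are required redundantly for its development. The deletion removes the genes from mir-35 to mir-41, and further family members lie outside it. In the nematode epidermis the GATA factor ELT-1 acts first and commits blastomeres to epidermal fate. The zinc finger protein LIN-26 then maintains epidermal differentiation, ELT-3 drives terminal genes in the main body epidermis, and the tandem GATA factors ELT-5 and ELT-6 keep the lateral seam cells in their fate. The nuclear receptors NHR-25 and NHR-23 act in epidermal differentiation and molting, and the zinc finger protein DIE-1 is required for the rearrangement of dorsal epidermal cells during morphogenesis.

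The values are the authors' normalized intensities, given below as log2, and the 3 values of a group always follow the order of the replicate numbers. The median log2 intensity lay between 6.49 and 6.56 on the mutant arrays and between 6.29 and 6.51 on the wild type arrays. Wild type replicate 3 stood apart from the rest. It shared only 22 to 29 distinct intensity values with any other array, whereas any pair of the remaining arrays shared between 577 and 1309, and it was the highest of the 6 arrays for 41.9% and the lowest for 24.6% of all features. Whether this array was normalized together with the others is not given in the sources used here. Mutant replicates 2 and 3 were close to each other (r = 0.998 over all features). For each other array, the highest r with any array was between 0.971 and 0.987. Wild type replicate 2 had the 0.987, and it was with mutant replicate 2 or 3, not with a wild type array. The main fit counts mutant replicates 2 and 3 as separate arrays, and whether they are independent samples was not tested. The 14 epidermal markers (14 of 14 measured) had summed intensities of 41086 to 42055 in the mutant and 45727, 43142 and 60166 in wild type. The third wild type array also had the highest sum over all genes. These sums weigh bright genes most, above all the collagen gene sqt-3, at 14.1 to 14.8 log2. Of the 14 markers, 10 had a difference (mutant minus wild type) below 0 and 4 above.

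None of the epidermal factor genes passed the test between the genotypes. In limma's moderated test with Benjamini-Hochberg adjustment over all features, 0 of the 15 features were called at an adjusted p below 0.05, with adjusted p between 0.505 and 0.988. Among all features 29 were called, 0.129% of those tested. Without wild type replicate 2, 1289 of all features were called and 0 of the 15. At an unadjusted p under 0.05 there were also 0 of the 15, against 10.2% of all features. The log2 differences (mutant minus wild type) of the 15 features ran from -0.40 to 0.22 with a median of -0.18, against a median of -0.10 for all features. They were below 0 for 12 of the 15 (80.0%) and for 62.2% of all features. All features include many dim ones. With features below the median level left out, 11 of 14 factor features were below 0, with a median of -0.16. Of all features kept by that filter 50.8% were below 0, with a median of -0.0094. Because RNA came from whole embryos, fewer epidermal cells and less RNA per cell cannot be told apart.

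The main fit nonetheless set limits on the size of the differences, as far as the variation among these arrays goes. All 15 features had a 95% interval that lay inside a 2-fold change in either direction, and the same held for 75.1% of all features. With features below the median level left out, it held for 14 of 14 factor features and for 60.4% of all those kept. The widest limits were at -0.83 for the second feature of elt-3 and at 0.77 for elt-1. These intervals are relative to the other genes on the arrays, since the authors normalized the arrays, and centring each array on its median moved the median of all features from -0.10 to -0.22. With that centring the second elt-3 feature had an interval that reached -1.05. Without mutant replicate 2 or 3, the first nhr-23 feature had limits of -1.05 and -1.01. With mutant replicates 2 and 3 averaged its limit was -1.03.

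**Figure D1:**
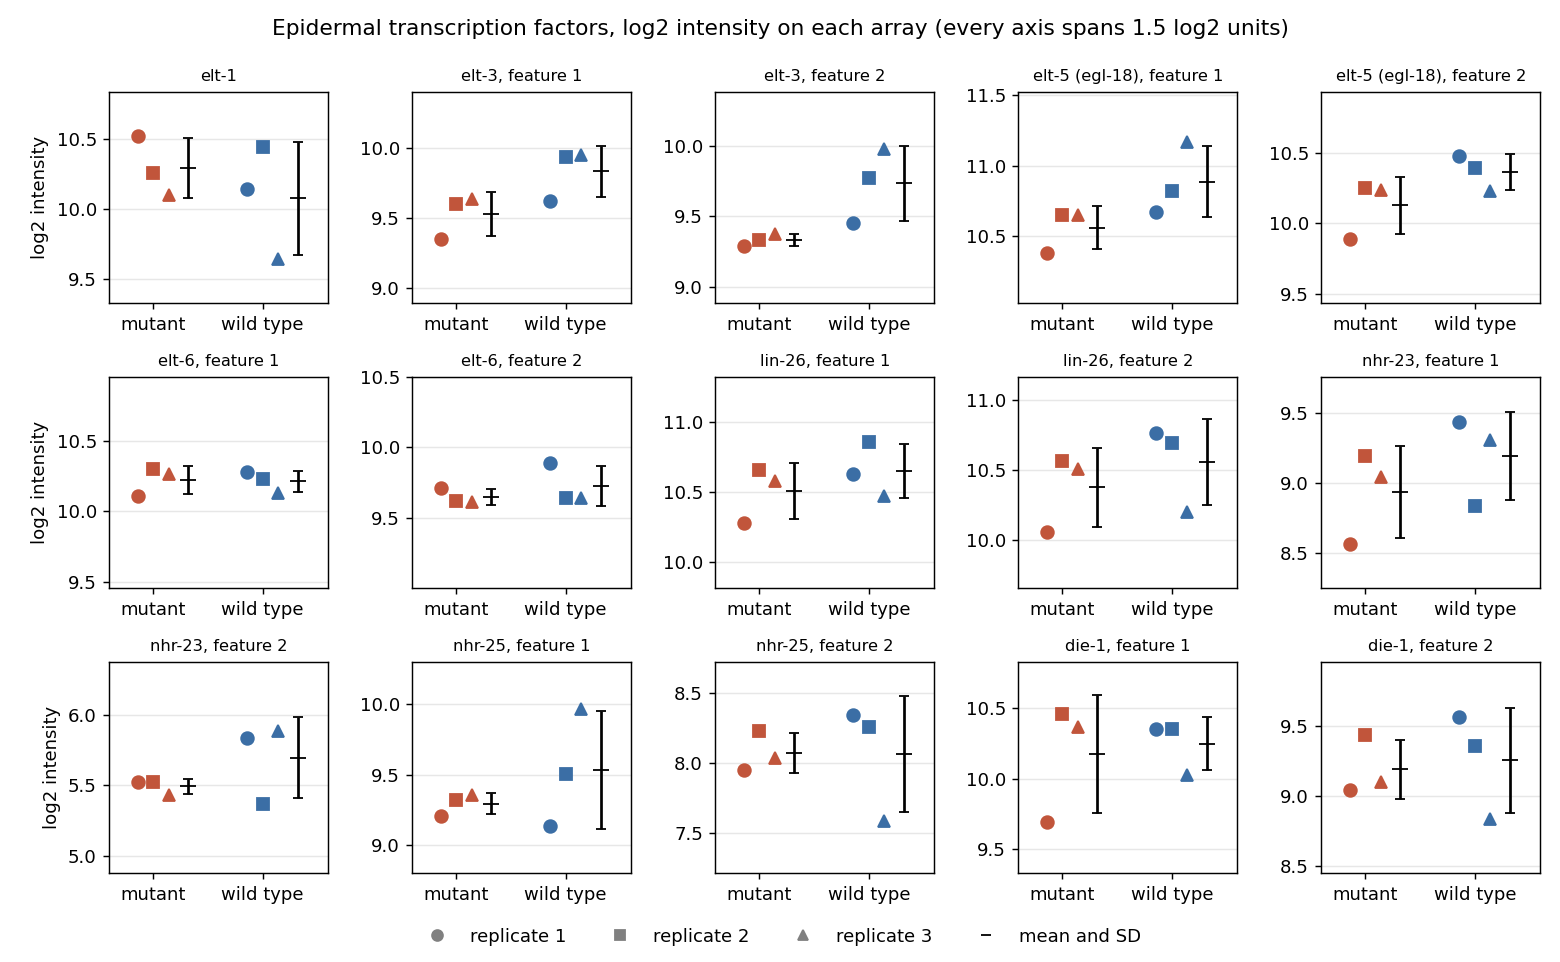
Log2 intensity of the 15 features on each array, with mutant arrays in red and wild type arrays in blue, marker shapes for the replicates, and the mean and SD of each group (n = 3) in black. The groups overlap for all features except the second of elt-3 and the first of elt-5, where the mutant arrays lie below the wild type arrays.

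**Figure D2:**
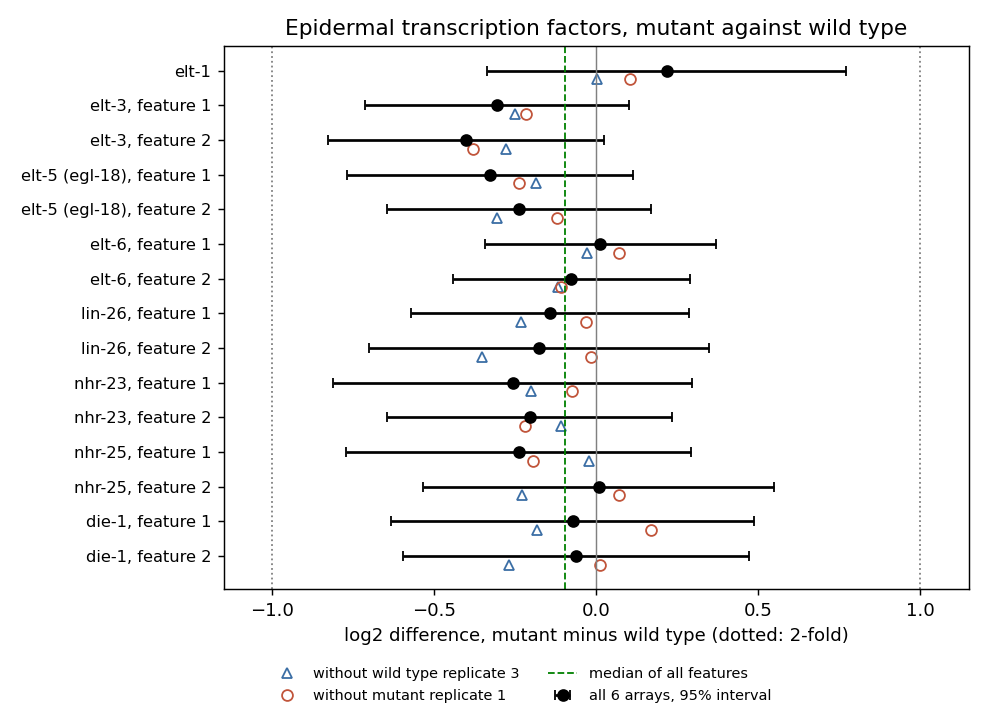
Log2 difference between mutant and wild type for each feature with its 95% interval (black), and the difference without wild type replicate 3 (blue triangles) or without mutant replicate 1 (red circles). Each interval lies between the dotted lines at a 2-fold change and includes 0.

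The gene at the top of the cascade, elt-1, was at 10.52, 10.26 and 10.10 in the mutant and 10.14, 10.44 and 9.64 in wild type. The groups overlapped, with the highest value on mutant replicate 1 and the lowest on wild type replicate 3. The means were 10.29 ± 0.21 in the mutant and 10.07 ± 0.40 in wild type (SD, n = 3 each), a difference of 0.22 ± 0.24 (SE, limma adjusted p = 0.683). It was the largest positive difference among the 15 features, and it moved with single arrays: it was 0.00197 without wild type replicate 3, 0.10 without mutant replicate 1 and 0.40 without wild type replicate 2. The mutant level of elt-1 was between 0.791 and 1.71 times the wild type level by the 95% interval.

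Downstream of elt-1, lin-26 had overlapping groups on both of its features, which also report lir-1. The first was at 10.28, 10.66 and 10.58 in the mutant and 10.63, 10.85 and 10.47 in wild type. Mutant replicate 1 was the lowest array on it and on the second feature, which was at 10.06 there and between 10.20 and 10.76 elsewhere. The differences were -0.14 ± 0.18 and -0.18 ± 0.23 (adjusted p = 0.719 and 0.717). Without mutant replicate 1 they were -0.03 and -0.02, and without wild type replicate 3 they were -0.23 and -0.35. A feature that names lir-1 alone differed by 0.11 ± 0.26, with 9.62 on wild type replicate 3 and 10.19 to 10.60 on the other arrays. The 3 features thus shared a low value on wild type replicate 3 relative to the other wild type arrays, but lir-1 alone was not lowest on mutant replicate 1.

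The most negative difference belonged to elt-3, the GATA factor of the main body epidermis. Its second feature was at 9.29, 9.33 and 9.37 in the mutant and 9.45, 9.77 and 9.98 in wild type. All mutant arrays lay below all wild type arrays, closely grouped (SD 0.04) beside a wider wild type spread (SD 0.27). The difference was -0.40 ± 0.18, or 1.32-fold (95% interval -0.83 to 0.02, limma adjusted p = 0.505). The first feature, at 9.35, 9.60 and 9.63 on the mutant arrays and 9.62, 9.93 and 9.94 on the wild type arrays, differed by -0.31 ± 0.18 (adjusted p = 0.564), and its groups overlapped through mutant replicate 3 and wild type replicate 1. The features of elt-3 were the pair that tracked each other most closely over the 6 arrays (r = 0.91). Without wild type replicate 3, where both were highest, the differences were -0.25 and -0.28.

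Among the seam cell factors, the first feature of elt-5 (egl-18) also had all mutant arrays below all wild type arrays. It was at 10.38, 10.65 and 10.65 in the mutant and 10.67, 10.82 and 11.17 in wild type. Mutant replicates 2 and 3 lay just below wild type replicate 1. The difference was -0.33 ± 0.19, or 1.26-fold (adjusted p = 0.569), and -0.19 without wild type replicate 3. The second elt-5 feature differed by -0.24 ± 0.18 (adjusted p = 0.605), with mutant replicate 1 lowest at 9.89 and the other arrays between 10.23 and 10.48. Without mutant replicate 1 it differed by -0.12.

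These 2 features of elt-3 and elt-5 were the only ones of the 15 without overlap between the groups, both with lower values in the mutant. Over all features 15.5% had no overlap in either direction and 9.37% had the mutant lower, so the share among the epidermal factors was near that of the table. There were 5 such features with array medians centred and 1 after quantile normalization again. With an array left out there were between 2 and 5, where fewer arrays overlap less often. The share over all features was not counted in these settings, so these numbers cannot be read against the table.

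In contrast to elt-5, its tandem neighbour elt-6 (0 protein-coding genes between them) had the smallest spread of all the factors. Its first feature was at 10.11, 10.30 and 10.27 in the mutant and 10.28, 10.23 and 10.13 in wild type, a range of 0.19 over all 6 arrays. The difference was 0.01 ± 0.15 (95% interval -0.34 to 0.37, adjusted p = 0.971). On the second feature all arrays but 1 lay between 9.61 and 9.71, with wild type replicate 1 at 9.89, and the difference was -0.08 ± 0.16 (adjusted p = 0.819). By the 95% intervals, the mutant level of elt-6 was between 0.788 and 1.29 times the wild type level on the first feature. On the second feature it was between 0.736 and 1.22 times. Whether elt-5 and elt-6 differed from each other in their response was not tested.

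The nuclear receptor gene nhr-25 gave opposite pictures on its 2 features. The first was at 9.21, 9.32 and 9.36 in the mutant and 9.13, 9.50 and 9.97 in wild type, so that both the highest and the lowest array were wild type. The second was at 7.95, 8.23 and 8.04 on the mutant arrays and at 8.34, 8.26 and 7.59 on the wild type arrays. On wild type replicate 3 the first feature was 0.65 above the mean of wild type replicates 1 and 2, and the second was 0.71 below it. Over the 6 arrays the features correlated at r = -0.76, the only negative value among the 7 genes with a pair of features. The differences were -0.24 ± 0.23 and 0.01 ± 0.23 (adjusted p = 0.656 and 0.988), and without wild type replicate 3 they were -0.02 and -0.23, so that the order of the 2 estimates turned.

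The molting regulator nhr-23 had overlapping groups on both features. Its first feature was at 8.57, 9.19 and 9.04 in the mutant and 9.44, 8.84 and 9.30 in wild type. Wild type replicate 2 lay among the mutant values, and the difference was -0.26 ± 0.24 (adjusted p = 0.649). Its second feature was dim, at 5.52, 5.52 and 5.43 on the mutant arrays and 5.84, 5.37 and 5.89 on the wild type arrays, below the median of each array. Wild type replicate 2 was the lowest array on it, and the difference was -0.20 ± 0.19 (adjusted p = 0.649). With single arrays left out, the first difference ran from -0.44 without wild type replicate 2 to -0.08 without mutant replicate 1, and was -0.14 without wild type replicate 1. The second ran from -0.37 without wild type replicate 2 to -0.11 without wild type replicate 3, and was -0.13 without wild type replicate 1.

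The morphogenesis gene die-1 was nearly level between the group means. The first feature was at 9.69, 10.46 and 10.37 in the mutant and 10.36, 10.36 and 10.03 in wild type. Mutant replicate 1 was the lowest array, and the spread inside the mutant group (SD 0.42) exceeded the difference of -0.07 ± 0.24 (adjusted p = 0.888). The second feature ran from 8.84 on wild type replicate 3 to 9.56 on wild type replicate 1, with all mutant arrays inside that range, and differed by -0.06 ± 0.23 (adjusted p = 0.901). Without mutant replicate 1 the differences were 0.17 and 0.01, and without wild type replicate 3 they were -0.18 and -0.27.

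Much of the variation followed single arrays. Mutant replicate 1 was the lowest of the 6 arrays for 9 of the 15 features, covering elt-3, elt-5, elt-6, lin-26, nhr-23 and die-1, against 14.4% of all features. It lay below both other mutant arrays for 12 of the 15, against 32.8% of all features. Its median deviation from the feature means was -0.24, compared with 0.00186 over all features. The median gap between mutant replicate 1 and the mean of mutant replicates 2 and 3 was 0.27 over the 15 features. The median difference between the genotypes was 0.20 (both as absolute log2 values), and mutant replicates 2 and 3 differed by a median of 0.06. These sizes cannot be ranked directly, since single arrays vary more than means of 3. The gap over all features was not counted. Mutant replicate 1 was not below both other mutant arrays for elt-1, which was at its highest there, and for the second features of elt-6 and nhr-23. Without mutant replicate 1 the median difference of the 15 features was -0.08 and 10 were below 0. Over all features the median was then -0.12, with 63.1% below 0.

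Wild type replicate 3 divided the factors. It was above both other wild type arrays for 5 features, both of elt-3 and the first of elt-5 and nhr-25 with the second of nhr-23, and below both for 9, among them elt-1, lin-26 and die-1. The deviation from the feature mean on this array was 0.45 for the second elt-3 feature and 0.55 for the first nhr-25 feature, and it was -0.54 for elt-1 and -0.38 for the second die-1 feature. Over all features the shares above and below were 47.8% and 32.8%. Without this array 14 of the 15 differences were below 0, with a median of -0.20, and 58.0% of all features were below 0, with a median of -0.04.

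**Figure D3:**
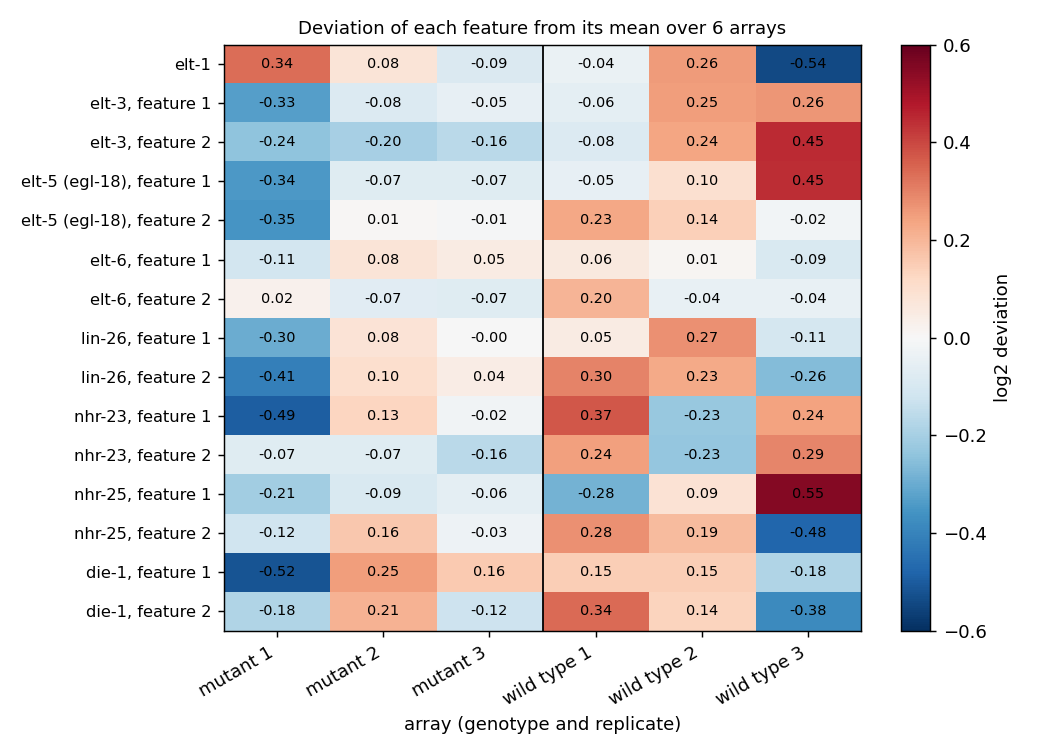
Deviation of each feature from its own mean over the 6 arrays, in log2 units, for mutant arrays left of the line and wild type arrays right of it. Mutant replicate 1 is blue for most features and red for elt-1 (0.34), and wild type replicate 3 is red for elt-3, nhr-23 and the first features of elt-5 and nhr-25, and blue for elt-1 and die-1.

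The factors did not vary as a single block. With each gene represented by its brighter feature, the closest pairs over the 6 arrays were elt-6 with die-1 (r = 0.94), elt-3 with elt-5 (r = 0.91) and elt-5 with nhr-25 (r = 0.90). The elt-1 feature ran opposite to the brighter features of elt-5 (r = -0.81), nhr-25 (r = -0.72) and nhr-23 (r = -0.72). Without wild type replicate 3 these values were -0.34, 0.21 and -0.83. Of the 28 pairs 20 had a positive r, and 7 pairs turned sign when wild type replicate 3 was left out. For elt-1, 5 of its 7 pairs were negative with that array and 6 of 7 without it. These values are a description over 6 arrays and hold for the brighter features only. The 2 features of one gene correlated at r = 0.09 for elt-6, 0.45 for elt-5 and -0.76 for nhr-25. For the other genes with a pair of features, r was 0.66 to 0.91. The brighter elt-6 feature had a range of only 0.19 over the arrays. Pairs of the dimmer features were not compared.

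The likeness search used 9970 single-gene features with an SD of at least 0.3 over the arrays. Those most like the brighter feature of each factor correlated at 0.973 to 0.999, values that a search of this size over 6 arrays selects. The closest to elt-1 were leo-1 and henn-1, to elt-3 K02E7.1 and unc-73, to elt-5 pqn-14 and psf-1, and to elt-6 sax-3 and ptp-1. Closest to lin-26 were T07A9.12 and hot-6, to nhr-23 inft-2 and eat-20, to nhr-25 arf-1.2 and fib-1, and to die-1 mlt-10 and lin-59. Of these, eat-20, a Crumbs-like membrane protein gene, and mlt-10, a molting gene, were also on the epidermal lists below, there with another feature.

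Genes that act around the factors were described by lists, with 1 feature per gene. Of 197 listed genes 183 were measured, and 0 of them were called in either direction. Among all 17137 genes so represented, 25 were called higher and 1 lower, and the median difference was -0.10. Regulators of early blastomeres and of the epidermis- and muscle-forming C lineage, which act upstream of elt-1 or beside it, had a median of -0.28, with 13 of 17 below 0. The Wnt gene cwn-1 differed by -0.61 ± 0.21, the cell fate gene mab-21 by -0.49 ± 0.18 and the maternal germline protein gene pie-1 by -0.68 ± 0.29, while the Notch receptor gene glp-1 differed by 0.45 ± 0.20 (adjusted p between 0.441 and 0.497). Without overlap between the groups were 1 of the 17 with the mutant higher (glp-1) and 4 with the mutant lower (cwn-1, mab-21, pie-1 and tbx-37, a T-box gene named after its values were seen), against 15.5% of all features in either direction. For pie-1 the difference without wild type replicate 3 was -0.39. Maternal oocyte transcripts, whose share depends on the age of the embryos, had a median of -0.49, with 17 of 19 below 0. Their median deviations were -0.05, -0.22 and -0.34 in the mutant and 0.40, -0.15 and 0.44 in wild type, and the part of embryo age in any difference here was not tested.

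Other transcription factors of the epidermis and seam had a median of -0.13 over the 12 of 15 genes measured (0.04 without wild type replicate 3). The nuclear receptor gene nhr-82 differed by -0.42 ± 0.16, the chromatin-associated factor gene egl-27 by 0.60 ± 0.26, the homeobox gene unc-62 by -0.53 ± 0.24 and the TEAD factor gene egl-44 by 0.49 ± 0.26 (adjusted p between 0.458 and 0.539). For egl-27 and egl-44 wild type replicate 2 lay within the mutant range, at 10.75 and 9.23, and wild type replicates 1 and 3 were lower. The other GATA factors, which act in endoderm and its precursor, had a median of -0.07 over the 5 of 7 genes measured. The intestinal factor gene elt-2 differed by -0.07 ± 0.30 and elt-7 by -0.40 ± 0.31 (adjusted p = 0.918 and 0.614). The gene end-3 differed by -0.15 ± 0.18 and med-1 by 0.18 ± 0.15 (adjusted p = 0.697 and 0.633). Of the 5 genes 4 were below 0, and med-1 was the 1 above. It was dim, with means of 4.78 in the mutant and 4.60 in wild type. Its mutant arrays all lay above the wild type arrays, as for 6.16% of all features.

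Some lists of structural epidermal genes had low values on mutant replicate 1, and others did not. Genes for junctions, enclosure and elongation (27 of 28 measured) had a median difference of 0.03 and a median deviation of -0.40 on mutant replicate 1, against 0.18 on both other mutant arrays. Attachment structure genes (8 of 9) had a median difference of 0.01 and a deviation of -0.55 on that array, and apical precuticle matrix genes (11 of 12) had -0.07 and -0.30. Epidermal collagens had a deviation of 0.02 on mutant replicate 1 and -0.02 on both other mutant arrays, and epidermal markers had -0.09, -0.09 and -0.12 in the mutant. The catenin genes hmp-1 and hmp-2, whose products act together at epidermal junctions, differed by 0.82 ± 0.36 and -0.42 ± 0.16 (adjusted p = 0.497 and 0.459). Low values on this array were not limited to epidermis: body wall muscle markers had a deviation of -0.42 there, intestinal markers -0.22, neuronal markers -0.03 and pharyngeal markers -0.04. The summed intensity of the 10 muscle markers was 18218 on mutant replicate 1, 22309 and 24041 on the other mutant arrays and 21380 to 28428 in wild type. Whether the composition of this sample set the values of the epidermal factors was not tested.

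Genes at the end of the epidermal programme gave small medians. Epidermal collagens (18 of 18) had a median of -0.05, with dpy-9, sqt-2 and dpy-8 the furthest from 0, at 1.63 ± 0.24, 1.33 ± 0.21 and 1.35 ± 0.28 (adjusted p = 0.0725, 0.0960 and 0.194). In the collagen list 4 of 18 genes, these 3 and rol-6, had every mutant array above every wild type array, as did 6.16% of all features and 0 of the 15 factor features. Molting genes (18 of 19) had a median of -0.01, with pan-1 at 0.58 ± 0.20, lrp-1 at 0.65 ± 0.24 and ptr-4 at 0.75 ± 0.35 (adjusted p between 0.441 and 0.508). The 14 epidermal markers had a median of -0.17, with the collagen-modifying enzyme gene dpy-18 at -0.82 ± 0.20, the collagen gene rol-6 at 0.49 ± 0.21, the hedgehog-related gene wrt-2 at -0.48 ± 0.23 and the collagen gene dpy-7 at -0.35 ± 0.20 (adjusted p between 0.261 and 0.560). Markers of other cell types had medians of -0.18 for intestine, -0.06 for body wall muscle, 0.12 for neurons, 0.25 for pharynx and -0.15 for germ cells, and early zygotic transcripts had -0.13.

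**Figure D4:**
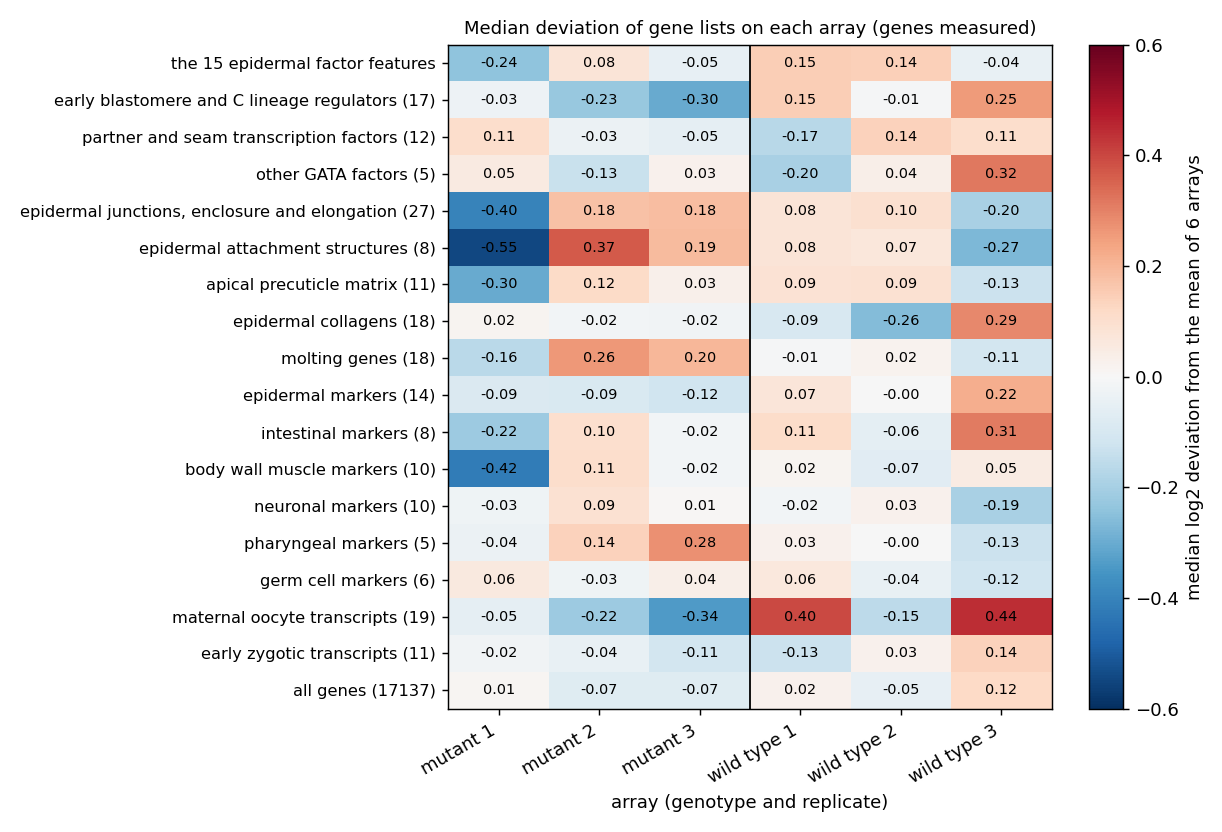
Median log2 deviation from the mean of the 6 arrays for the 15 epidermal factor features, for each gene list (number of genes measured) and for all genes, on each array. Mutant replicate 1 is lowest for attachment structures (-0.55), muscle markers (-0.42) and junction genes (-0.40), and maternal oocyte transcripts are high on wild type replicates 1 and 3 (0.40 and 0.44).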

How the data were processed

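The authors deposited a normalized intensity per feature and array on a linear scale, and the same values as log2, which differed from log2 of the linear values by at most 5.63e-06. Affymetrix Expression Console is named per the submitters' processing notes. Its version and the background and normalization methods are details not given in the sources used here. Of 22625 features 77 array controls were left out. The genotypes were compared on log2 intensities by a two-sided moderated test in limma 3.58.1 (R 4.3.3, functions lmFit and eBayes), without a block and with Benjamini-Hochberg adjustment over 22548 features (threshold 0.05), and the fit was tested on simulated data. Intervals are 95% intervals of the moderated fit. Names and gene order came from RefSeq genes of WBcel235. The array's genome build is not given in the sources used here, so coordinates were not used.

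The 8 genes and the 16 lists were chosen with earlier results of these data known. For each list gene the brightest feature naming no other gene was used. Named from each list were up to 4 genes with the smallest p and any called, and the 2 genes most correlated with each factor were named. Precision is limited by 3 arrays per group. Nothing in the labels pairs the arrays by replicate number. Deviations of same-numbered arrays from their group means correlated at -0.03, 0.07 and -0.18, and those of differently numbered arrays at -0.22 to 0.30. With 3 arrays per group, these values cannot show whether the arrays were paired. Alternatives were each array left out, a replicate block, the log2 table, quantile normalization again, median centring, removal of dim features, addition of 16, array weights, a prior with intensity trend and robust fitting, and mutant replicates 2 and 3 averaged. Array weights estimated gene by gene were an alternative chosen after seeing the data.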

Additional observations from a re-analysis of the deposited data

How the results depend on the processing

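The epidermal factors gave 0 called features under each alternative except array weights, which called 8. That estimate stopped before its tolerance and called 13639 of all features, against 29. Gene-by-gene array weights, chosen after seeing the data, called 3608 of all features, a trend with robust prior 46, median centring 50, addition of 16 gave 8, quantile normalization again 3, and averaging mutant replicates 2 and 3 gave 0 (1059 at an unadjusted p under 0.05). The replicate block called 19 features and 0 of the factors. Leaving out single arrays gave 0 to 1289 calls: 0 without any mutant replicate (2203, 1151 and 1008 at an unadjusted p under 0.05 without replicates 1, 2 and 3), 47 without wild type replicate 1, 1289 without wild type replicate 2 and 1 without wild type replicate 3. The cause was not tested. Factor features without overlap numbered 5 with medians centred and 1 after quantile normalization again, and 2 to 5 with an array left out. The share over all features was not counted in these settings.

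Differences near 0 turned sign. The first die-1 feature was 0.019 with array weights, 0.045 with gene-by-gene weights and -0.22 to 0.17 with an array left out, and the second was -0.27 to 0.093. The first elt-6 feature was -0.12 with medians centred, -0.0026 with array weights, -0.016 with mutant replicates averaged and -0.029 to 0.069 with an array left out, and the second was -0.12 to 0.0056. The first nhr-25 feature was 0.19 with array weights and 0.086 with gene-by-gene weights. The second was -0.12 with medians centred, -0.22 with array weights, -0.16 with gene-by-gene weights, -0.023 with mutant replicates averaged, -0.13 after quantile normalization and -0.23 to 0.15 with an array left out. The cause was not tested. With 3 arrays per genotype, differences smaller than the intervals given could not be told from 0, and the dim second nhr-23 feature was the only one removed by the filter on low levels.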
